A study of Homo sapiens with 12 samples.

Results

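Estrogen receptor alpha, the factors that open chromatin for it, a cofactor, a target gene and a group of epithelial transcription factors were followed as 9 genes in RNA sequencing of human triple-negative breast cancer cells. The genes were fixed by name and found by Ensembl identifier in the raw count table: ESR1, GATA3, FOXA1, NRIP1, GREB1, SPDEF, ELF3, GRHL2 and TFAP2C. They are 9 of the 57992 genes of the table. All 9 have a line in the table, but in BT-549 only NRIP1, ELF3 and TFAP2C had enough counts to be tested. In SUM149 every gene except SPDEF had enough.

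BT-549 and SUM149 are established lines of triple-negative breast cancer, which is classed as negative for estrogen receptor, progesterone receptor and HER2. Each line stably carried a control construct (CshRNA) or a hairpin that silences MUC1-C (MUC1shRNA), the C-terminal subunit of the mucin MUC1, and the 4 groups had 3 numbered libraries each. BT-549 was grown in RPMI1640 with serum and insulin, and SUM149 in Ham's F-12 with serum, insulin and hydrocortisone, so line and medium cannot be told apart. The descriptions call the BT-549 controls vector, whereas their titles say CshRNA. The labels mention cultures in triplicate without saying how these were derived, and a p-value here covers only the spread among the libraries sequenced.

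In the luminal cells of the mammary gland, estrogen receptor alpha is a hormone-activated transcription factor that binds DNA together with coregulators. FOXA1 is a pioneer factor that opens chromatin for the receptor, GATA3 specifies luminal cells and acts in a loop with ESR1, and TFAP2C (AP-2 gamma) acts beside them at many of the same sites. NRIP1 (RIP140) is a ligand-dependent corepressor of nuclear receptors and itself an estrogen target, and GREB1 is an estrogen-induced cofactor of the receptor. SPDEF and ELF3 are ETS factors of secretory and simple epithelia, and GRHL2 is a grainyhead factor that maintains junction genes. In triple-negative cells of mesenchymal character this programme is usually weak.

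Levels are given as CPM, the counts relative to the library total, with the totals of all 12 libraries adjusted together by the trimmed mean of M values. Log2 fold changes are MUC1shRNA against CshRNA, with the standard error (SE). A gene rose or fell where the adjusted p was below 0.05 in edgeR's quasi-likelihood test with Benjamini-Hochberg adjustment over all genes tested in that comparison, and every adjusted p below is from that test.

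The windows upstream of NRIP1 and GATA3 are shown because these genes gave the largest differences of the responses, GATA3 on few BT-549 counts. Each is the 250 bases before the outermost start of the gene in RefSeq (GRCh38.p14), 5′ to 3′ on the strand of the gene, with the letters of a searched motif in capitals.

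NRIP1, chr21:15065937-15066186, minus strand: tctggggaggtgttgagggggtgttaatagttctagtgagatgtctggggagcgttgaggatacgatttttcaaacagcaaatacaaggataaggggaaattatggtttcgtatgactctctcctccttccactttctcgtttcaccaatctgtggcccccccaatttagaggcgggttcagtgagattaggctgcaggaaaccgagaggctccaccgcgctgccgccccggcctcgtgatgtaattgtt

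GATA3, chr10:8045083-8045332, plus strand: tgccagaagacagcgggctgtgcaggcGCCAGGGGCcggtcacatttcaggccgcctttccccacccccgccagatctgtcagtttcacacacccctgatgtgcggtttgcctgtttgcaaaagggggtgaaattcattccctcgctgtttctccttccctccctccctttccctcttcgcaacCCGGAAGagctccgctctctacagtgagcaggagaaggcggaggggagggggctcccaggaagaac

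In the GATA3 window the capitals mark a match to the AP-2 motif at -223 to -215 and to the ETS motif at -66 to -60, counted from the start. The NRIP1 window held no match to any of the 7 motifs searched on both strands. These were, with the share of all 35116 RefSeq windows of this length that hold each, the palindromic estrogen response element with a spacer of any 3 bases (0.0399%) and a single arm of that element, AGGTCA (12.1%). The motif GCCNNNGGC stood for the AP-2 family (19.8%), AGATAA for the GATA factors (9.17%) and TGTTTAC for forkhead factors (2.98%). The motif AACCGGTT stood for grainyhead factors (0.117%) and CCGGAAG for the ETS family (8.52%). The half-site can overlap a match of the palindromic element but cannot lie wholly within it. The RefSeq table held 18 windows for 6 of the 9 genes, of which 4 held an AP-2 match and 1 an ETS match, and the other motifs had no match among them. All of these matches lay in windows of GATA3 and NRIP1. TFAP2C, GREB1 and GRHL2 were not matched. A match is a description of the letters and not evidence of binding.

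Depth was 16332364 to 20745835 counts per library in BT-549 CshRNA, 16373893 to 21248768 in BT-549 MUC1shRNA, 19392422 to 24140623 in SUM149 CshRNA and 7931614 to 9623924 in SUM149 MUC1shRNA. The limit that a count of 0 allows, 3 counts, lay between 0.1131 and 0.3415 CPM. MUC1 itself fell in both lines, with a log2 fold change of -3.53 in BT-549 (SE 0.15, adjusted p = 4.2e-07) and of -4.59 in SUM149 (SE 0.36, adjusted p = 1.8e-08). Of 11 leukocyte markers, 7 were at 0 in both BT-549 groups and 5 or 6 in the SUM149 groups, CD3E, CD2 and MS4A1 among them, and their summed level was at most 11.5 CPM in any library. The 8 endothelial markers summed to 8.63 to 20.4 CPM in BT-549 and 19.4 to 40.6 CPM in SUM149. The 8 fibroblast markers summed to 3125 to 3554 CPM in BT-549, led by COL1A2, and to 39.7 to 56.5 CPM in SUM149.

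The library SUM149 CshRNA 3 stood apart from the other SUM149 controls in 3 of the 9 genes. FOXA1 was at 46.4 CPM there against 11.7 and 12.2 CPM in CshRNA 1 and 2, a ratio of 3.90 to their mean. SPDEF was at 4.97 CPM against 0.0754 and 0.138 CPM, and GREB1 at 3.42 CPM against 1.32 and 1.29 CPM. By contrast ESR1, GATA3, NRIP1, ELF3, GRHL2 and TFAP2C lay within 0.832 to 1.21 times that mean. Among all 14169 genes compared, 1.62% were at least 2-fold higher in this library.

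Several genes of prostate epithelium were higher in this library. FOLH1, which encodes prostate-specific membrane antigen, was at 74.0 CPM in CshRNA 3 and at 0 and 0.231 CPM in CshRNA 1 and 2. KLK3, which encodes prostate-specific antigen, was at 16.0 CPM against 0 and 0.0461 CPM. A list of 11 prostate epithelial genes, written after values of this library were seen, summed to 271 CPM in CshRNA 3 with none of the 11 at 0, and to 49.5 and 52.7 CPM in CshRNA 1 and 2 with 6 and 2 genes at 0. In the MUC1shRNA libraries of SUM149 the list summed to 52.4, 45.4 and 57.1 CPM, close to CshRNA 1 and 2, with none of the genes at 0. Over 5 genes of the list, also picked after values were seen, the MUC1shRNA libraries lay between the controls. KLK2, KLK3, KLK4, FOLH1 and TMPRSS2 together were there at 8.08, 3.34 and 12.7 CPM. In CshRNA 1, 2 and 3 they were at 0.0754, 0.600 and 119 CPM. BT-549 libraries summed to 26.1 to 34 CPM over the 11 genes and to 0 to 0.108 CPM over these 5. Not all of the 11 followed these 5. STEAP2 was at 29.4, 30.7 and 67.9 CPM in SUM149 CshRNA 1, 2 and 3, and lower with MUC1shRNA, at 19.7, 16.3 and 15.7 CPM. SLC45A3 was at 13.9, 14.5 and 14.3 CPM against 7.40, 10.9 and 8.54 CPM, and so was not higher in CshRNA 3. The part of the listed prostate genes in the results below was not tested.

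**Figure D1:**
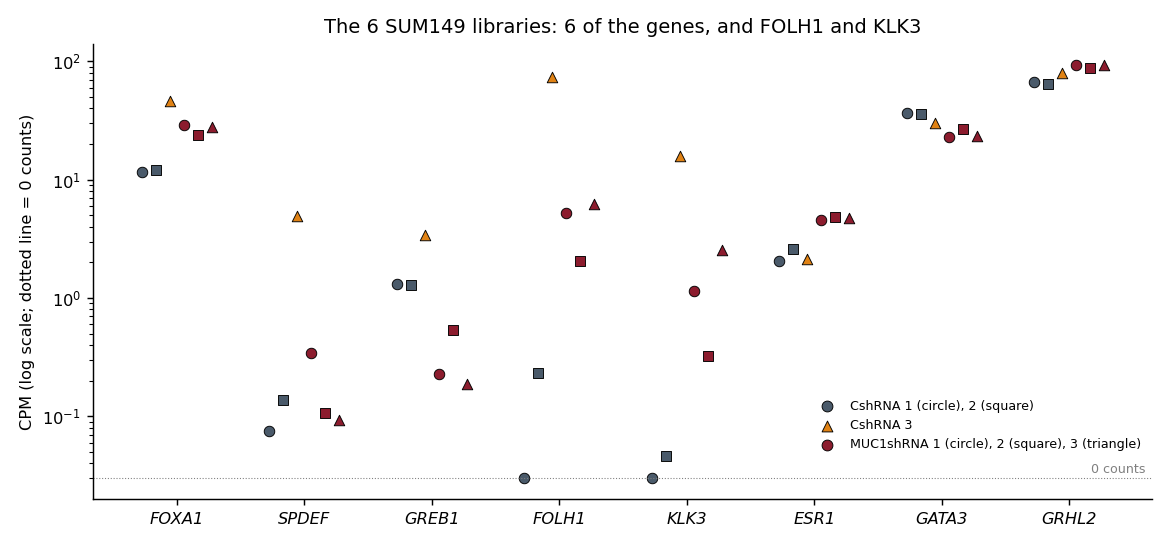
Level in CPM (log axis; the dotted line holds libraries with 0 counts) of FOXA1, SPDEF, GREB1, FOLH1, KLK3, ESR1, GATA3 and GRHL2 in the 6 SUM149 libraries, 1 point per library. CshRNA 3 (orange) is the highest library for the first 5 genes, with FOLH1 at 74.0 CPM, and lies near CshRNA 1 and 2 for ESR1, GATA3 and GRHL2.

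The first question was whether luminal regulators differed in BT-549 when MUC1 was silenced. NRIP1 and ELF3 rose, TFAP2C did not pass the test, and the other 6 genes had too few counts for it. Thus 2 of 3 tested genes were called, both higher, beside 33.3% of all 13200 genes tested in this line and 16.8% called higher. In bulk RNA, fewer cells expressing a gene and less RNA per cell cannot be told apart.

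NRIP1 (ENSG00000180530.10, GENCODE 29 on GRCh38, chromosome 21, 14961235 to 15065936, minus strand) was at 5.34, 4.95 and 6.02 CPM in the BT-549 CshRNA libraries and at 26.8, 27.9 and 26.5 CPM in the MUC1shRNA libraries. Each MUC1shRNA library thus lay far above each control, and the libraries of a group lay close together. The log2 fold change was 2.30 (SE 0.10, 95% interval 2.08 to 2.52, adjusted p = 6.1e-07). Exons of NRIP1 share 6.61% of their bases with the opposite-strand transcript AF127577.1, which had 0 counts in all 12 libraries.

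ELF3 (ENSG00000163435.15, chromosome 1, 202007945 to 202017188, plus strand) was at 3.10, 2.74 and 1.95 CPM with CshRNA and at 6.84, 5.35 and 5.49 CPM with MUC1shRNA. The groups did not overlap. ELF3 rose by 1.18 on the log2 scale (SE 0.20, 95% interval 0.74 to 1.62, adjusted p = 0.0016), from 54, 41 and 36 counts to 128, 89 and 80. Exons of ELF3 share 9.23% of their bases with the opposite-strand ELF3-AS1, which had 1 to 11 counts in each of the 12 libraries, and as many with AL691482.3 on its own strand, which had at most 1 count in a library. Both genes without overlap between groups compare with 46.4% of all tested genes.

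TFAP2C (ENSG00000087510.6, chromosome 20, 56629302 to 56639283, plus strand) was at 96.9, 94.7 and 93.8 CPM with CshRNA and at 106, 94.3 and 115 CPM with MUC1shRNA. MUC1shRNA 2 lay among the controls. The log2 fold change was 0.13 (SE 0.07, 95% interval -0.03 to 0.29, adjusted p = 0.18), and without MUC1shRNA 2 it was 0.20 (adjusted p = 0.036).

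The receptor and most of its partners were near the limit of detection in BT-549. ESR1 (ENSG00000091831.21, chromosome 6, 151656691 to 152129619, plus strand) had 0, 0 and 3 counts with CshRNA and 2, 3 and 1 with MUC1shRNA. GREB1 (ENSG00000196208.13, chromosome 2, 11482341 to 11642788, plus strand) had 1, 2 and 3 counts against 1, 1 and 1. GRHL2 (ENSG00000083307.10, chromosome 8, 101492432 to 101669726, plus strand) had 1, 0 and 1 against 1, 1 and 0. SPDEF (ENSG00000124664.10, chromosome 6, 34537802 to 34556333, minus strand) had 0 counts in all 6 libraries, which allows up to 0.1602 to 0.2058 CPM in a library. No difference between the arms was detectable for these 4 genes at this depth.

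GATA3 and FOXA1 were also low in BT-549 but had more counts with MUC1shRNA. GATA3 (ENSG00000107485.15, chromosome 10, 8045378 to 8075203, plus strand) had 0, 1 and 6 counts with CshRNA and 13, 9 and 6 with MUC1shRNA. The ratio of summed counts, relative to the summed adjusted library totals, was 4.07 with an exact 95% counting interval of 1.74 to 11. FOXA1 (ENSG00000129514.5, chromosome 14, 37589984 to 37596059, minus strand) had 1, 4 and 6 counts against 7, 14 and 13, a ratio of 3.15 with a counting interval of 1.56 to 6.88. These intervals cover counting error only. The GATA3 ratio was 18.2 (interval 3.00 to 742) without CshRNA 3, which held 6 of the 7 control counts, and 2.68 (interval 1.14 to 7.26) without CshRNA 1. With no filter on low counts the test gave GATA3 at 1.97 (SE 0.70, adjusted p = 0.012) and FOXA1 at 1.63 (SE 0.57, adjusted p = 0.014). In the SUM149 fit with no filter FOXA1, whose controls lay far apart, had an SE of 0.10 against 0.40 with the filter, and no call is taken from fits of this kind. The highest MUC1shRNA level was 0.694 CPM for GATA3 and 0.892 CPM for FOXA1, against means of 24.4 and 27.0 CPM in SUM149 MUC1shRNA.

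**Figure D2:**
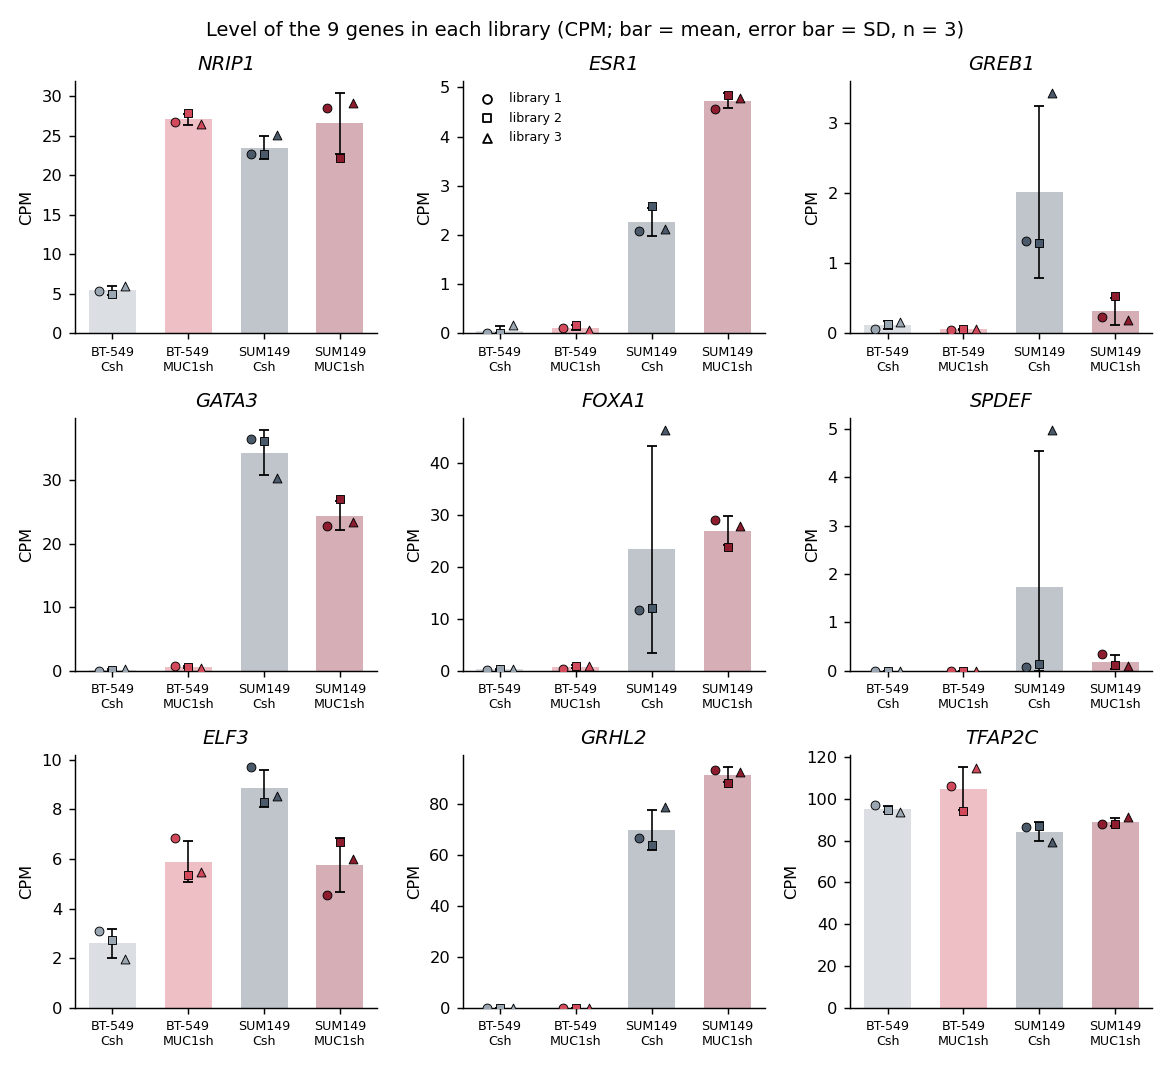
Level in CPM (vertical axes, from 0) of the 9 genes in the 4 groups, with points for libraries 1 to 3, bars for means of 3 libraries and error bars for the SD, stopped at 0. NRIP1 lies at 4.95 to 6.02 CPM in BT-549 CshRNA and at 22.2 to 29.1 CPM in all other libraries, while GATA3, FOXA1 and GRHL2 lie near 0 in BT-549 and FOXA1, SPDEF and GREB1 have their highest value in SUM149 CshRNA 3.

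The same question in SUM149 gave a divided answer. ESR1 and GRHL2 rose, GATA3, GREB1 and ELF3 fell, and FOXA1, NRIP1 and TFAP2C did not pass the test. The 5 of 8 tested genes compare with 56.5% of 14178 genes called in this line, 27.6% higher and 28.9% lower. Without CshRNA 3, 7 of 8 passed, FOXA1 and NRIP1 being added, beside 61.2% of all genes.

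ESR1 was at 2.07, 2.58 and 2.13 CPM with CshRNA and at 4.55, 4.85 and 4.79 CPM with MUC1shRNA. Every MUC1shRNA library lay above every control, on 40 to 51 counts against 48 to 56 in the deeper control libraries. The log2 fold change was 1.09 (SE 0.20, 95% interval 0.67 to 1.51, adjusted p = 3.6e-04).

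GREB1, a target of the receptor, went the opposite way. It was at 1.32, 1.29 and 3.42 CPM with CshRNA and at 0.228, 0.538 and 0.188 CPM with MUC1shRNA, where it had 2, 5 and 2 counts. The groups did not overlap, and the highest control was CshRNA 3. GREB1 fell by 2.62 on the log2 scale (SE 0.64, adjusted p = 0.0012), and by 2.01 without CshRNA 3 (SE 0.53, adjusted p = 3.9e-04).

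NRIP1, the cofactor, was at 22.7, 22.6 and 25.1 CPM with CshRNA and at 28.5, 22.2 and 29.1 CPM with MUC1shRNA, so MUC1shRNA 2 lay below all controls. Its log2 fold change was 0.21 (SE 0.10, 95% interval -0.02 to 0.43, adjusted p = 0.11). It passed the test without CshRNA 3 (0.25, adjusted p = 0.042) or without MUC1shRNA 2 (0.34, adjusted p = 0.0091).

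GATA3 was at 36.5, 36.2 and 30.2 CPM with CshRNA and at 22.8, 27.0 and 23.4 CPM with MUC1shRNA. The lowest control lay above the highest MUC1shRNA library. GATA3 fell by 0.47 on the log2 scale (SE 0.10, adjusted p = 0.0017).

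FOXA1 depended on CshRNA 3. It was at 11.7, 12.2 and 46.4 CPM with CshRNA and at 29.1, 23.9 and 28.0 CPM with MUC1shRNA, so the MUC1shRNA libraries lay between the controls. Over all 6 libraries the log2 fold change was 0.24 (SE 0.40, 95% interval -0.63 to 1.11, adjusted p = 0.63). Without CshRNA 3 FOXA1 rose by 1.2 (SE 0.11, 95% interval 0.97 to 1.43, adjusted p = 5.8e-10). FOLH1 was likewise higher in the MUC1shRNA libraries (5.24, 2.05 and 6.20 CPM) than in CshRNA 1 and 2, and its part in that rise was not tested.

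SPDEF had 2, 3 and 112 counts with CshRNA and 3, 1 and 1 with MUC1shRNA. All but 5 of its control counts thus came from CshRNA 3, and in the other 5 libraries it was at 0.0754 to 0.342 CPM, at or near the limit of detection. It did not pass the filter on low counts. With no filter its value was -3.25 (SE 0.59, adjusted p = 1.8e-09), a difference that rests on CshRNA 3.

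Of the epithelial factors, ELF3 was at 9.69, 8.3 and 8.53 CPM with CshRNA and at 4.55, 6.68 and 6.01 CPM with MUC1shRNA. It fell by 0.59 on the log2 scale (SE 0.16, adjusted p = 0.0064) without overlap of the groups. GRHL2 was at 66.8, 64.0 and 78.9 CPM with CshRNA and at 93.7, 88.2 and 92.9 CPM with MUC1shRNA. GRHL2 rose by 0.42 (SE 0.08, adjusted p = 6.5e-04), again with no overlap. TFAP2C was at 86.4, 87.3 and 79.2 CPM against 87.8, 88.2 and 91.4 CPM, with a log2 fold change of 0.11 (SE 0.07, 95% interval -0.04 to 0.25, adjusted p = 0.19). In all, 6 of the 8 tested genes had groups without overlap, beside 62.6% of all genes.

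**Figure D3:**
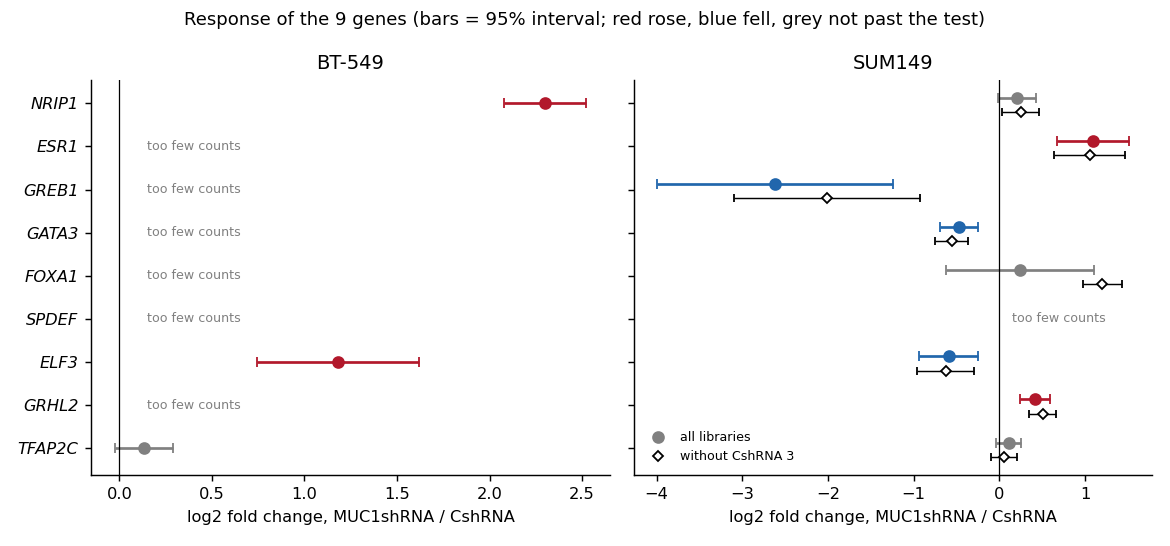
Log2 fold change of MUC1shRNA against CshRNA (horizontal axes, different in range) for the 9 genes in BT-549 (left) and SUM149 (right), with 95% intervals. NRIP1 (2.30) and ELF3 (1.18) rose in BT-549, and open diamonds show SUM149 without CshRNA 3, where FOXA1 is at 1.2 instead of 0.24.

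Whether the lines responded differently was tested as the difference of the responses, BT-549 minus SUM149, over all 12 libraries. It passed the test for GATA3, NRIP1 and ELF3, in each case as a higher value in BT-549. These 3 of 8 genes compare with 39.6% of 15649 genes called and 19.5% called higher. For NRIP1 the difference was 2.11 (SE 0.15, adjusted p = 8.5e-08) and for ELF3, which rose in BT-549 and fell in SUM149, it was 1.79 (SE 0.26, adjusted p = 7.2e-05). For GATA3 it was 2.44 (SE 0.69, adjusted p = 0.0045), with 7 and 28 counts in all behind the BT-549 response, and it was 4.34 without BT-549 CshRNA 3 and 1.85 without BT-549 CshRNA 1. It passed for these 3 genes with any library left out, but for GATA3 this is not taken as support. GATA3 had too few counts for the BT-549 test and entered this fit through its SUM149 counts. Its difference thus rests on BT-549 counts below that filter.

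For the other tested genes the difference did not pass the test. It was 1.40 for FOXA1 (95% interval -1.80 to 4.60, adjusted p = 0.46) and 0.43 without SUM149 CshRNA 3 (adjusted p = 0.54). It was 0.04 for TFAP2C (95% interval -0.16 to 0.25, adjusted p = 0.78). For ESR1, GREB1 and GRHL2, with 2 to 6 counts per BT-549 group, the intervals ran from -2.26 to 1.98, from -1.10 to 4.58 and from -3.12 to 2.35.

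The levels of the lines were then compared within each arm. With CshRNA, 7 of 8 tested genes were lower in BT-549 than in SUM149, all except TFAP2C, beside 83% of all genes called and 43.5% called lower. ESR1, GATA3, FOXA1, GREB1 and GRHL2 had too few counts for the BT-549 test and entered this fit through their SUM149 counts. A lower value in BT-549 was thus favoured in advance for them. GRHL2 had 2 counts in BT-549 and 4935 in SUM149, a ratio of SUM149 to BT-549 of 1773 with a counting interval of 491 to 14647. The ratio was 250 for GATA3 (7 and 2434 counts, interval 121 to 622) and 38.1 for ESR1 (3 and 159 counts, interval 12.8 to 187). Both rest on single BT-549 controls. Without BT-549 CshRNA 3 the GATA3 ratio was 1114 on 1 count (interval 200 to 44029) and ESR1, with 0 counts left, was at least 24.3-fold higher in SUM149 against 3 counts over the group. Without BT-549 CshRNA 1 the ratios were 164 for GATA3 and 25 for ESR1. FOXA1 had 11 and 1618 counts, a ratio of 106 (interval 58.9 to 212), and a ratio of 54.9 (interval 30.5 to 111) without SUM149 CshRNA 3, which held 1045 of the counts. GREB1 had 6 and 140 counts, a ratio of 16.8 (interval 7.51 to 46.5), and a ratio of 11.1 (interval 4.81 to 31.3) without that library. SPDEF was at least 28.0-fold higher in SUM149 CshRNA against 3 counts over the BT-549 group, and at least 1.76-fold without SUM149 CshRNA 3, which held 112 of its 117 counts.

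NRIP1 and ELF3 differed less. With CshRNA, NRIP1 was lower in BT-549 by a log2 difference of -2.17 (SE 0.11, adjusted p = 7.2e-11) and ELF3 by -1.84 (SE 0.19, adjusted p = 1.8e-07). With MUC1shRNA neither difference passed the test. It was -0.06 for NRIP1 (95% interval -0.28 to 0.16, adjusted p = 0.59) and -0.05 for ELF3 (95% interval -0.45 to 0.35, adjusted p = 0.81). The means with MUC1shRNA were 27.1 CPM in BT-549 and 26.6 CPM in SUM149 for NRIP1, and 5.89 and 5.75 CPM for ELF3.

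With MUC1shRNA, 5 of 8 genes were lower in BT-549, beside 79.7% called and 40.8% called lower. They were ESR1, GATA3, FOXA1, GREB1 and GRHL2, the genes that entered this fit through their SUM149 counts. GREB1 was closest to the threshold (-2.33, SE 1.11, adjusted p = 0.038), on 3 and 9 counts. It did not pass without any 1 of the BT-549 MUC1shRNA libraries or without SUM149 MUC1shRNA 2, where its values were -1.74 to -2.41.

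Levels between genes were compared per kilobase of exon. TFAP2C was the highest of the 9 genes in all 4 groups, with 31.7 ± 0.523 and 34.9 ± 3.38 CPM per kilobase in BT-549 CshRNA and MUC1shRNA and 28.1 ± 1.46 and 29.7 ± 0.654 CPM per kilobase in SUM149 (SD, n = 3 each). In BT-549 NRIP1 (0.640 ± 0.0635 CPM per kilobase with CshRNA) and ELF3 (0.361 ± 0.0817) followed. The other 6 genes were each below 0.18 CPM per kilobase there, on at most 34 counts per group, and are not ordered. In SUM149 CshRNA the order was GRHL2 (11.5 ± 1.31 CPM per kilobase), GATA3 (9.99 ± 1.03), FOXA1 (5.88 ± 5.00), NRIP1 (2.77 ± 0.168) and ELF3 (1.23 ± 0.104). GRHL2 and GATA3 lay within about their SDs of each other, and FOXA1 overlapped its neighbours through CshRNA 3, being at 2.99 CPM per kilobase over CshRNA 1 and 2, close to NRIP1 at 2.67. ESR1 (0.163 ± 0.0201) and GREB1 (0.163 ± 0.0988) had the same mean only with CshRNA 3, and over CshRNA 1 and 2 ESR1 was at 0.168 and GREB1 at 0.106 CPM per kilobase. In SUM149 MUC1shRNA, GRHL2 (15.1 ± 0.489 CPM per kilobase) lay above GATA3 (7.10 ± 0.671) and FOXA1 (6.78 ± 0.691), whose levels overlapped.

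The genes most alike in profile were taken as those with the highest Pearson correlation of log2 CPM. They are a description over libraries that share the 2 arms, not a test. Over the 12 libraries, each line centred, NRIP1 was most like PERP (r = 0.991), PCDH1 (0.988) and FAM210B (0.987), and ELF3 was most like WDR19 (0.988), SEMA4B (0.971) and NUP210 (0.961). TFAP2C had lower values, with B3GNT2 (0.939), FAXC (0.927) and BCL2L1 (0.871). Over the 6 SUM149 libraries, ESR1 was most like S1PR1, TMEM158 and AC023024.1 (0.997 to 0.998), GATA3 like PTK7, ACVR2B-AS1 and AL021368.2 (0.996 to 0.998), and GRHL2 like GNPTAB, EPB41L4B and FAM173B (0.997 to 0.998). FOXA1 was most like VSIG10L (0.997), ENPP1 (0.996) and SERINC5 (0.990), with 0.999, 0.993 and 0.994 without CshRNA 3. GREB1 was most like BLVRA, HGH1 and MXD4 (0.995 to 0.997).

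Targets of the receptor were described from a list of 48 genes. In BT-549, 29 were tested, of which 8 rose and 8 fell, 55.2% beside 33.3% of all genes, with a median log2 fold change of 0.02 beside -0.01 over all tested genes. IGFBP4, which binds insulin-like growth factors, fell there by 1.07 (SE 0.06, adjusted p = 3e-06) and ELOVL2, a fatty acid elongase, by 0.69 (SE 0.08, adjusted p = 2.6e-04). In SUM149, 37 were tested, of which 11 rose and 12 fell, 62.2% beside 56.5% of all genes, with a median of 0.06 beside -0.03 over all genes. Without CshRNA 3, 12 rose and 12 fell among 35 tested, 68.6% beside 61.2%. The SUM149 shares are near those of all genes. STC2, a secreted glycoprotein, was at 281 ± 7.92 CPM in the controls and at 46.4 ± 3.45 CPM after silencing (SD, n = 3 each) and had a log2 fold change of -2.57 (SE 0.07, adjusted p = 5.7e-11). CCND1, which encodes cyclin D1, went from 190 ± 6.09 to 456 ± 4.34 CPM, a log2 fold change of 1.29 (SE 0.06, adjusted p = 2.3e-09). CCND1 shares 10.3% of its exon bases with LTO1 on the opposite strand. TFF1, a classical target, was at 0 in every library.

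Coregulators of nuclear receptors were called at a share near that of all genes in both lines. Of 30 genes, 29 were tested in BT-549, with 2 higher and 9 lower, 37.9% beside 33.3% of all genes, and a median of -0.07. CARM1, an arginine methyltransferase that acts as a coactivator, fell by 0.31 (SE 0.05, adjusted p = 0.0022) and SAFB2, a corepressor, by 0.36 (SE 0.07, adjusted p = 0.0039). CARM1 shares 19.9% of its exon bases with YIPF2 on the opposite strand. In SUM149 all 30 were tested, with 7 higher and 11 lower, 60% beside 56.5% of all genes, and a median of -0.02. Among them the corepressor CTBP1 fell by 1.02 (SE 0.06, adjusted p = 3.4e-08) and TBL1XR1, a subunit of the NCoR and SMRT corepressor complexes, by 1.18 (SE 0.08, adjusted p = 6.5e-08). Without CshRNA 3 the counts were again 7 and 11. CTBP1 shares 13.3% of its exon bases with CTBP1-AS and CTBP1-DT on the opposite strand.

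Of 26 relatives of the luminal factors, 12 were tested in BT-549, where GATA6 (0.43), ELF1 (0.23) and ELF2 (0.27) rose and TFCP2 (-0.34) and ELF4 (-0.23) fell, 41.7% beside 33.3% of all genes. ESRRA (-0.37), GATA2 (-0.40), GRHL1 (0.15), UBP1 (0.01), TFAP2A (0.01), TFAP2E (-0.82) and EHF (-0.36) did not pass the test. The SE of these values was 0.05 to 0.44. In SUM149, 14 were tested, of which GATA6 (0.42, adjusted p = 0.0071) rose and TFCP2 (-0.33, adjusted p = 0.0043), TFCP2L1 (-1.25, adjusted p = 9.3e-08) and TFAP2A (-0.50, adjusted p = 2.6e-04) fell, 28.6% beside 56.5% of all genes. TFCP2L1, a grainyhead-related factor, went from 563 ± 79.0 to 233 ± 0.676 CPM (SD, n = 3 each). TFAP2A is the AP-2 alpha paralog of TFAP2C and went from 141 ± 17.3 to 98.1 ± 3.04 CPM, while TFAP2C did not pass the test. TFAP2A shares 16.7% of its exon bases with TFAP2A-AS2 and TFAP2A-AS1 on the opposite strand, and GATA6 shares 14.2% with GATA6-AS1 and AC091588.3. The difference of the responses was called for 3 of 14 tested relatives, 21.4% beside 39.6% of all genes. They were TFAP2A (0.53, adjusted p = 8e-04), ELF1 (0.31, adjusted p = 0.021) and ELF2 (0.53, adjusted p = 0.0067).

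The counts for these relatives changed when CshRNA 3 was left out. Without it 8 of the 14 relatives were called in SUM149, 4 higher and 4 lower, instead of 1 and 3, or 57.1% beside 61.2% of all genes. The additions were GATA2, whose value turned from -2.87 to 2.99 (adjusted p = 0.0016), EHF (1.39, adjusted p = 5e-09), GRHL1 (0.74, adjusted p = 0.0079) and ELF2 (-0.29, adjusted p = 0.018). GATA2 was at 19.4 CPM in CshRNA 3 and at 0.151 and 0.0461 CPM in CshRNA 1 and 2, at or near the limit of detection. EHF was at 32.0 CPM in CshRNA 3 against 5.39 and 4.84 CPM. GRHL1 was at 3.69 CPM against 2.79 and 2.21 CPM, and ELF2 at 30.1 CPM against 34.1 and 31.2 CPM. As for FOXA1, FOLH1 was higher in the MUC1shRNA libraries (5.24, 2.05 and 6.20 CPM) than in CshRNA 1 and 2. Its part in the higher calls added without CshRNA 3 was not tested.

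The list of luminal differentiation markers held 26 genes. Of 13 tested in BT-549, 6 rose and 2 fell, 61.5% beside 33.3% of all genes, with a median of 0.28. KRT8, a keratin of simple epithelium, was at 45.6 ± 1.78 CPM in the controls and at 290 ± 32.4 CPM after silencing (SD, n = 3 each) and rose by 2.66 on the log2 scale (SE 0.08, adjusted p = 1.3e-07). SYTL2, a regulator of vesicle transport, fell by 1.33 (SE 0.11, adjusted p = 2.2e-05). KRT8 has many processed copies in the genome and shares 7.63% of its exon bases with KRT18 on the opposite strand, so some reads could be shared. In SUM149, 16 were tested, with 3 higher and 6 lower, 56.2% beside 56.5% of all genes, and a median of -0.31. Without CshRNA 3 there were 6 higher and 6 lower, 75% beside 61.2%, with a median of 0.10. The part of the prostate genes in the added calls was not tested. In SUM149 CD24, a surface glycoprotein whose gene also has processed copies, went from 20.4 ± 1.09 to 84.8 ± 5.49 CPM, and AZGP1, a secreted zinc-binding glycoprotein, from 17.4 ± 1.53 to 2.32 ± 0.600 CPM. Their log2 fold changes were 2.08 (SE 0.08, adjusted p = 3e-10) and -2.87 (SE 0.18, adjusted p = 1.7e-08).

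Epithelial genes linked to GRHL2 and ELF3 were present in SUM149 and scarce in BT-549. The 25 genes summed to 2141 to 2239 CPM in SUM149 libraries and to 43.6 to 50.3 CPM in BT-549 libraries. All 24 tested genes were lower in BT-549 CshRNA than in SUM149 CshRNA, beside 83% of all genes called and 43.5% called lower. Most of the 24 had too few counts for the BT-549 test and entered that fit through SUM149, which favoured a lower value in BT-549. RAB25, OVOL1 and PRSS8 were at 0 in both BT-549 groups. In BT-549 1 of 9 tested genes rose and 2 fell, 33.3% as for all genes. The sorting protein MAL2 rose by 1.39 (SE 0.17, adjusted p = 2.7e-04) and the adaptor subunit AP1M2 fell by 1.00 (SE 0.14, adjusted p = 5.4e-04). In SUM149 6 of 24 rose and 8 fell, 58.3% beside 56.5% of all genes, with a median of -0.09. Both shares are near those of all genes. The junction protein TJP3 went from 4.70 ± 0.624 to 0.792 ± 0.314 CPM (-2.52, SE 0.30, adjusted p = 5.2e-06). Under upper-quartile scaling the SUM149 counts of this list were 4 higher and 10 lower, and without CshRNA 3 they were 8 and 8, 66.7% beside 61.2% of all genes.

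Some markers of other cells also passed the test. In BT-549, 2 of 3 tested leukocyte markers fell (PTPRC and CORO1A) and 1 of 2 endothelial markers rose (ROBO4). Of 5 tested fibroblast markers COL1A2 (0.35) and COL1A1 (0.19) rose and THY1 (-1.57) and FAP (-1.42) fell. These calls stand beside 33.3% of all genes. In SUM149, CD14 (-0.81) fell among 3 tested leukocyte markers and PECAM1 (-1.54) among 2 endothelial markers. All 3 tested fibroblast markers were called, COL1A1 (-0.40) and DCN (-0.69) lower and FAP (1.72) higher. Here 56.5% of all genes were called. With so few tested per list, the shares are not read as differing from those of all genes. The part of these markers in the results above was not tested.

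**Figure D4:**
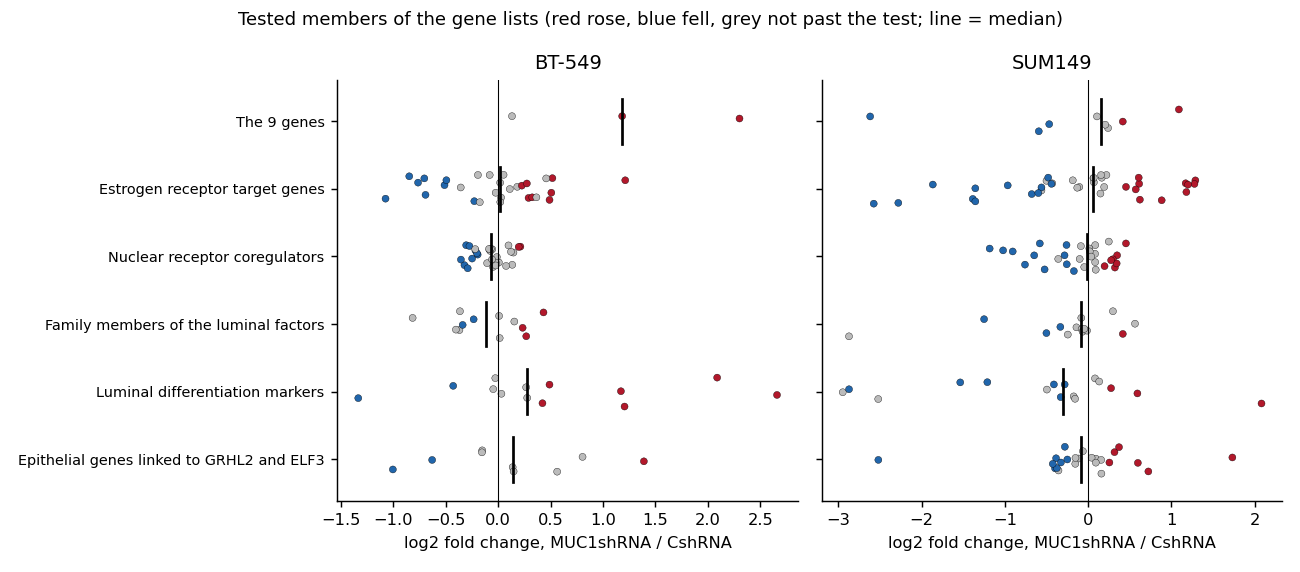
Log2 fold change of MUC1shRNA against CshRNA (horizontal axes, different in range) for the tested genes of 6 lists in BT-549 (left) and SUM149 (right), 1 point per gene, vertical lines for medians. Most lists hold both red (rose) and blue (fell) genes, and the medians lie between -0.31 and 0.28 apart from the 9 genes themselves in BT-549, where 3 were tested with a median of 1.18.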

How the data were processed

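Poly(A) RNA libraries (TruSeq Stranded mRNA, per the labels' protocols) of 12 samples were analysed. The authors deposited raw counts per Ensembl gene and library, without normalization. Per the submitters' processing notes, STAR 2.7.0, CASAVA 1.8.2, the build GRCh38.p7 and DESeq2 1.24.0 were used, with no roles stated. The way reads were counted, and whether by strand, was not stated there, so reads of overlapping genes on opposite strands may not be told apart. Overlaps of named genes are not all given in the text. Gene names and exons came from GENCODE 29 (57433 of 58037 identifiers matched with any version), and 45 copies on the Y pseudoautosomal regions were left out. Upstream windows came from RefSeq.

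The 6 libraries of a line entered a fit of their own in edgeR 4.0.16 under R 4.3.3 (TMM, filterByExpr with its default minimum of 10 counts, quasi-likelihood test, Benjamini-Hochberg). Differences of the responses and between lines used all 12 libraries in 1 fit. SEs and 95% intervals are of Wald type from that fit. The functions were tested on simulated data. Genes named are the 9 genes, MUC1, up to 2 members with the smallest adjusted p per list and line, tested relatives of the luminal factors and the 3 most alike genes. FOLH1, KLK3 and other prostate genes were chosen after their values were seen, as were COL1A2, DCN and genes named as at 0 or as leading a list. Not every gene covered by the rule is given in the text. The 9 genes and the 8 lists beside them were chosen with earlier results of these data known. Depth limits the precision for genes of few counts. Replicate libraries were not copies of each other, with a chi-square per degree of freedom of 1.85 to 14.5 over genes of at least 20 counts. The alternatives were DESeq2 1.42.0 and limma-voom (limma 3.58.1), RLE or upper-quartile scaling, dropping the filter or asking for 5 CPM in 3 libraries, a replicate block, 1 fit over both lines and each library left out.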

Additional observations from a re-analysis of the deposited data

Results flagged for a closer look

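The difference of the responses of the lines passed the test for 3 of the 9 genes (edgeR, Benjamini-Hochberg). For GATA3 the difference, BT-549 minus SUM149, was 2.44 on the log2 scale, with a range of 1.85 to 4.34 over fits that leave out 1 library. For NRIP1 it was 2.11, with a range of 2.00 to 2.19. For ELF3 it was 1.79, with a range of 1.60 to 1.93. Of these genes, GATA3 had too few counts for the BT-549 test and entered the fit over both lines through its SUM149 counts.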

How the results depend on the processing

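Of the values of the 9 genes under alternatives other than leaving out 1 library, 267 kept their direction and their side of the threshold, 4 passed it only there, 1 was lost and 6 reversed, all 6 for values that had not passed. The count of the 9 genes past the test in BT-549 was 4 with no filter and 1 with the filter of 5 CPM, which by construction tests more or fewer genes of few counts. The count of all genes past the test in BT-549 ran from 2716 (without MUC1shRNA 1) to 4470 with 1 library left out, against 4398. The difference of the responses for ESR1 was 0.24 with limma-voom, 2.56 without BT-549 CshRNA 3 and MUC1shRNA 2 together (a fit chosen after seeing the data) and -0.70 to 2.95 with 1 library left out. That range was -0.83 to 0.039 for GRHL2 and -0.028 to 0.10 for TFAP2C. FOXA1 in SUM149 ran from -0.10 (without CshRNA 1) to 1.2 (without CshRNA 3). Upper-quartile scaling moved the median of all genes by -0.12 between the CshRNA groups and by -0.10 between the MUC1shRNA groups, and it turned TFAP2C between the CshRNA groups from 0.11 to -0.016. Between the MUC1shRNA groups, NRIP1 was 0.025 with no filter and -0.17 to 0.020 with 1 library left out, and ELF3 was 0.037 with no filter, 0.021 without both BT-549 libraries and -0.17 to 0.075 with 1 left out. The cause was not tested. Leaving single libraries out of the count ratios and of the levels per kilobase was also chosen after seeing the data.

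A replicate block by the title number gave 2 and 5 of the 9 genes past the test in BT-549 and SUM149, as without it, and 2951 and 7934 of all genes. It changed no call of the 9 genes. Deviations of same-numbered libraries of a line correlated from -0.145 to 0.099, and 2 of 6 libraries correlated best with their own number, so the numbers were not taken to pair the samples.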
